A study of Mus musculus with 38 samples.

Results

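Class II olfactory receptor genes are the larger of the 2 classes of odorant receptor genes in the mouse. They were taken as the protein-coding genes of the deposited gene tables whose symbol starts with Or, a family number and a letter, leaving out families 51 to 56, which make up class I. This gave 1057 of the 78202 genes in the tables, or 4.87% of the 21687 protein-coding genes. The members fall into 14 families, numbered 1 to 14, of which family 5 (202 genes), family 4 (159), family 8 (131) and family 2 (128) are the largest and family 3 (6) is the smallest. The symbols of 42 members carry the ending of a pseudogene although the tables list them as protein-coding.

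The study mapped the nuclear periphery by CUT&RUN, which cuts and releases DNA near the protein an antibody binds. Naive mouse embryonic stem cells (naive mESCs, kept in 2i + LIF for 48 h) and epiblast-like cells (EpiLCs, made with FGF and Activin A in 48 h) were profiled with an antibody to LAP2B, an isoform encoded by Tmpo that is anchored in the inner nuclear membrane. At both stages 4 genotypes were compared for LAP2B: wild type (WT), LBRKO (no lamin B receptor), TKO (all lamins deleted) and QKO (no lamins and no lamin B receptor). The lamin LMNB1 and a non-specific immunoglobulin (IGG) were mapped in WT cells, so that no IGG background was measured in a mutant. Each of the 12 groups had 3 libraries, of 200000 cells each, with yeast DNA added as a spike-in. The TKO line and its WT littermate line came from another laboratory, the LBRKO line was derived from WT cells and QKO was 1 clone made from TKO cells. The study's karyotypes found trisomy of chromosome 8 in TKO cells and of chromosomes 6 and 8 in part of the WT cells, so that genotype and line cannot be told apart. Only 34 members lie on chromosome 6 or 8. Nothing in the labels ties the 3 libraries of a group to separate clones or cultures, so p-values measure the spread between libraries. The material is genomic DNA, which carries no transcripts by which the identity of the cells could be checked, and in a bulk library fewer cells with a contact and a weaker contact per cell cannot be told apart.

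Each olfactory sensory neuron expresses 1 allele of 1 olfactory receptor gene, and the receptor is a G protein-coupled receptor that signals through the G protein subunit made by Gnal, the adenylyl cyclase Adcy3 and a cyclic nucleotide-gated channel. The genes lie in tandem clusters that are silent, late replicating and poor in G and C in almost all cells, and such clusters are typical of lamina-associated domains, the parts of the genome held at the nuclear lamina. Lamin B receptor and the A-type lamins are the main tethers of heterochromatin to the lamina. In sensory neurons, the homeodomain factor LHX2 and the EBF factors bind near receptor genes, and loss of the lamin B receptor there accompanies the gathering of receptor genes away from the periphery.

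Of the 1057 members, 1056 had coordinates in the GENCODE M39 annotation of GRCm39 (mm39). They lay on 18 chromosomes in 49 clusters, counting members less than 1 Mb apart as 1 cluster. The 16 clusters with 20 or more members held 888 genes. Clusters are named here by chromosome and a letter in order along it. The largest was cluster 2b, with 243 members over 5.07 Mb (chr2:85161123-90234241), followed by cluster 9b with 104 members (chr9:37620260-40101430), cluster 19a with 69, cluster 7e with 67 (chr7:106274212-108493627) and cluster 10b with 61. A member spanned a median of 7 bins of 1 kb, against 5 for all genes, and 191 members shared a bin with another gene, whose reads cannot be told apart from theirs. Among the members described below, these include Or1j21, Or7d10, Or1e17, Or2d2, Or5k16, Or5w22, Or10j5 and Or13c7b. Receptor genes are also near-identical copies of each other in places, so values of single members are uncertain where reads map to several copies. The 41 members that could not be tested had 0 reads in all 24 LAP2B libraries, and 6 of these lay in cluster 16d.

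The sequence before the annotated starts of both receptor classes was unlike that of most other genes. In the 250 bases before the annotated start, the median GC content was 36.8% for members, 39.6% for the 137 class I genes and 52.0% for the 20627 other protein-coding genes, and 42.7% of members and 46.7% of class I genes had no CpG there, against 6.24% of the other genes. The letters TAATTA, the core of homeodomain sites, were found in 247 of 1056 member promoters (23.4%), in 14.6% of class I promoters and in 5.65% of all protein-coding promoters. CCCNNGGG, the core of EBF sites, was found in 13.1% of members, 16.1% of class I genes and 11.7% of all protein-coding genes, and TATAAA, the TATA box, in 29.1%, 29.9% and 12.5%. Both strands were searched, and matches to 1 motif on opposite strands can overlap. TAATTA and TATAAA are made of A and T only, and the windows of both receptor classes are poorer in G and C. The part of base composition in these counts was not tested. All are counts of letters in a fixed window and show no binding. The window depends on the annotated start, and some members have short annotated genes (Or6c6b 929 bp, Or5an10 948 bp), against a median of 5895.5 bp. Whether such starts are starts of transcription was not checked.

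Promoters of 5 members are printed to show this range, read 5′ to 3′ on the strand of the gene from GRCm39, with matches to the 3 motifs in capitals. Or6a2, known as the octanal receptor I7, had the largest fall of LAP2B in naive QKO cells (chr7:106605280-106605529, minus strand), and Or10ah1-ps1 had the largest rise (chr5:143133337-143133586, minus strand). Or10j5 (chr1:172777726-172777975, plus strand), known as MOR23, a receptor for lyral, and Or2c1 (chr16:3648492-3648741, plus strand) are well studied receptors with unlike responses. Or6c210 (chr10:129493313-129493562, plus strand) was chosen after its motifs were seen, as the described member with most TAATTA matches (4).
Or6a2: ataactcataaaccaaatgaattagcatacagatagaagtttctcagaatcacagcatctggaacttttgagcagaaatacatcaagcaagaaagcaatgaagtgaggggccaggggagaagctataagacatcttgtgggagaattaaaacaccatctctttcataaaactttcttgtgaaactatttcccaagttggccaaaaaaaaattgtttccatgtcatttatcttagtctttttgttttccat
Or10ah1-ps1: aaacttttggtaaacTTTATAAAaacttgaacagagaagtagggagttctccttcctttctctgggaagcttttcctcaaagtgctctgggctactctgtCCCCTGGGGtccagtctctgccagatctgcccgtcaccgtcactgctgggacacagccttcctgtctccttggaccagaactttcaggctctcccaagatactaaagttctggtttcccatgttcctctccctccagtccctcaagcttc
Or10j5: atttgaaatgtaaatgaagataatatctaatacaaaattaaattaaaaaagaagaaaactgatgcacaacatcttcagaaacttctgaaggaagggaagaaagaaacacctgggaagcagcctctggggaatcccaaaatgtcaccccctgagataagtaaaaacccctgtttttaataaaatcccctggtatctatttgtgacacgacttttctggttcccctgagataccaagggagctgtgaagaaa
Or2c1: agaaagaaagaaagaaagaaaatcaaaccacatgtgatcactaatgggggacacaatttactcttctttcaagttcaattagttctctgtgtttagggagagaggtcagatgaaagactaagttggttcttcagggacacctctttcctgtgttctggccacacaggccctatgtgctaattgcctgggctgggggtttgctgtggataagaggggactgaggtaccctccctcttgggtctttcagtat
Or6c210: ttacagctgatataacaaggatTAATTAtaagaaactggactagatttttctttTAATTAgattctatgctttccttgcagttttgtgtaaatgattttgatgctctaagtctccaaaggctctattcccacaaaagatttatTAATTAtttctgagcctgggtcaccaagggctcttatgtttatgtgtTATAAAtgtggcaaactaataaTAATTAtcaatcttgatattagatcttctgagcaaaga
The promoter of Or10ah1-ps1 held 50% G and C and matches to the EBF core and the TATA box, that of Or6c210 held 30.8%, and those of Or6a2, Or10j5 and Or2c1 held no match. Members with TAATTA in the promoter and members without it had about the same median LAP2B change in naive LBRKO cells (log2 -1.08 over 232 tested members and -1.09 over 783), and in naive QKO cells their medians were -1.61 and -1.48. The 132 tested members with the EBF core had medians of -0.85 in LBRKO (70.5% lower) and -1.38 in QKO (78.0%), against -1.10 (81.8%) and -1.52 (91.7%) for the 883 without it. With and without the TATA box, they were -1.13 and -1.06 in LBRKO and -1.55 and -1.50 in QKO. Of all genes tested, 27.6% were called lower in naive LBRKO and 42.2% in naive QKO (limma, relative scale, described below). The fixed letters of CCCNNGGG are G and C only. These splits were not tested, and neither was the part of base composition in them.

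Values are given on 3 scales. On the spike-in scale they are as deposited. The relative scale divides each value by that of the median gene of its library and is used to compare 1 gene between libraries. Density is the value per 1 kb bin divided by the median of that quantity over all genes of the library, so that 1 is the median gene, and it is used to compare genes with each other. Recovered reads over genes came to 12608484 to 41198406 per LAP2B library, 29522895 to 37189077 per LMNB1 library and 12028659 to 45689196 per IGG library, and the median member had 38 to 133, 157 to 248 and 40 to 140 reads. The tables of the 3 antibodies were normalised separately, so levels of different antibodies are set side by side without a test.

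In WT naive mESCs, class II receptor genes had high LMNB1. Their median density was 2.40, 1.63 and 2.005 in the 3 libraries (2.01 ± 0.385, SD, n = 3), and the median member stood at percentile 84.3 of all genes. LAP2B gave 1.38, 1.74 and 1.34 (1.49 ± 0.221, percentile 73.7), and IGG gave a mean of 0.821 ± 0.0565 (percentile 30.9). In WT EpiLCs, LMNB1 density was 1.65 ± 0.279 and the percentile 84.1, LAP2B density was 1.08 ± 0.122 (0.976 to 1.21, percentile 58.1) and IGG density was 0.696 ± 0.0486. LAP2B of the class was thus above the median gene in all 3 naive WT libraries and on both sides of it in WT EpiLCs.

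Members differed from each other in LMNB1. Or9k2b, of family 9, had the highest naive density of its family (6.34, 3.48 and 4.65 in the 3 libraries), as had Or6c6b of family 6 (4.87, 4.06 and 4.34), Or12e9 of family 12 (5.45, 2.59 and 4.94) and Or3a1c of family 3 (3.37, 1.36 and 1.90). Library 1 was the highest and library 2 the lowest for each of these 4 members. By family, the median LMNB1 density was highest in family 6 (3.04) and lowest in family 13 (1.36).

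**Figure D1:**
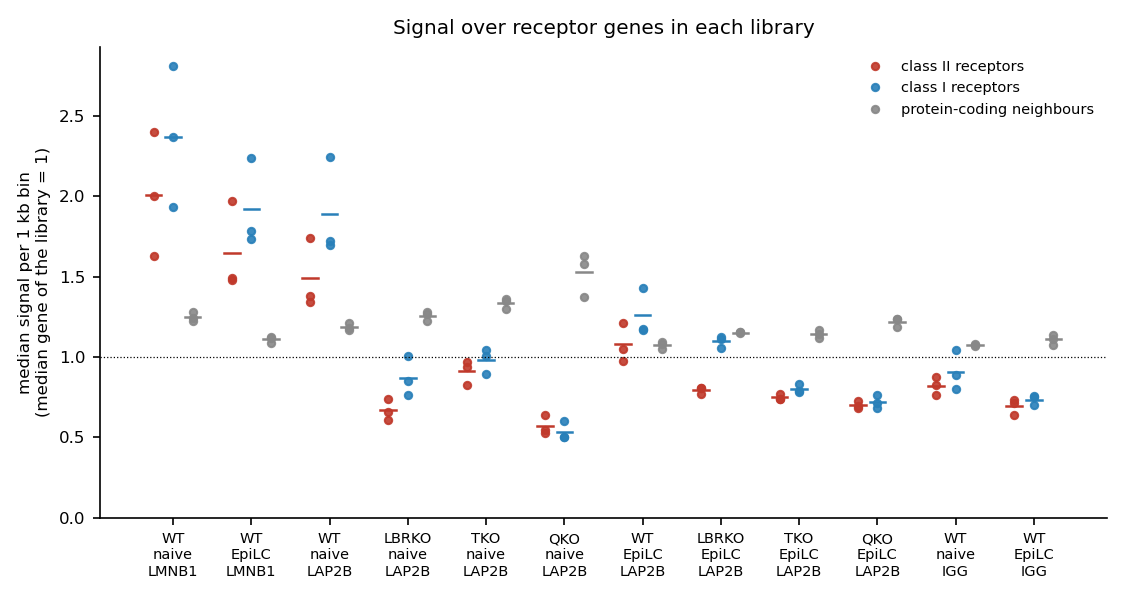
Median density (signal per 1 kb bin relative to the median gene of the library, which is 1) of class II receptor genes, class I receptor genes and the protein-coding neighbours of large receptor clusters in each of the 36 libraries, by group; each point is 1 library. Class II genes lie at 1.34 to 1.74 in naive WT LAP2B and below 1 in every LAP2B library of the mutants.

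The first question was which naive mutants lose LAP2B at these genes. LAP2B of the class was lower in all 3 mutants, on both scales most in QKO. Relative to the median gene it fell least in TKO, but on the spike-in scale it fell least in LBRKO. The median density fell from 1.49 ± 0.221 in WT to 0.669 ± 0.0649 in LBRKO (0.610 to 0.739), 0.911 ± 0.0766 in TKO (0.825 to 0.972) and 0.570 ± 0.0618 in QKO (0.524 to 0.640), and no mutant library overlapped a WT library. The median member moved from percentile 73.7 to 28.7 for LBRKO, 42.5 for TKO and 25.7 for QKO. On the spike-in scale the median signal per 1 kb of members went from 0.720 ± 0.225 in WT to 0.346 ± 0.0416 for LBRKO, 0.263 ± 0.0488 for TKO and 0.0930 ± 0.00468 for QKO. WT IGG, normalised apart, had 0.0887 ± 0.0216 on that scale and a density of 0.821 at these genes.

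Gene by gene, 815 of 1016 tested members were lower in naive LBRKO than in WT on the relative scale and 8 were higher (limma, adjusted over all genes), where 27.6% of all genes were called lower and 29.0% higher. The median log2 change was -1.08 for members and 0.05 for all genes. In naive TKO 687 members were lower and 6 higher (median -0.75), against 27.8% and 21.8% of all genes and a median of -0.10. In naive QKO 914 were lower and 21 higher (median -1.51), against 42.2% and 33.3% and a median of -0.21. The middle 80% of member changes ran from -1.62 to -0.27 in LBRKO, -1.18 to -0.19 in TKO and -2.08 to -0.53 in QKO. A change below -1 was found in 577, 232 and 809 members.

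On the spike-in scale the median of all genes was itself 0.21 in LBRKO, -0.62 in TKO and -1.17 in QKO, so changes there are read relative to that shift. On it 675 members were lower in LBRKO and 9 higher (median -0.94), 916 lower in TKO (median -1.31), and 993 lower and 1 higher in QKO (median -2.49), where 17.8%, 47.2% and 64.9% of all genes were called lower and 28.4%, 2.38% and 10.1% higher. Scaling each library to its mean in place of its median left 361 members lower and 23 higher in TKO. Without WT library 2, the WT library with the highest level of the class, 426 members were lower in LBRKO on the spike-in scale.

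**Figure D2:**
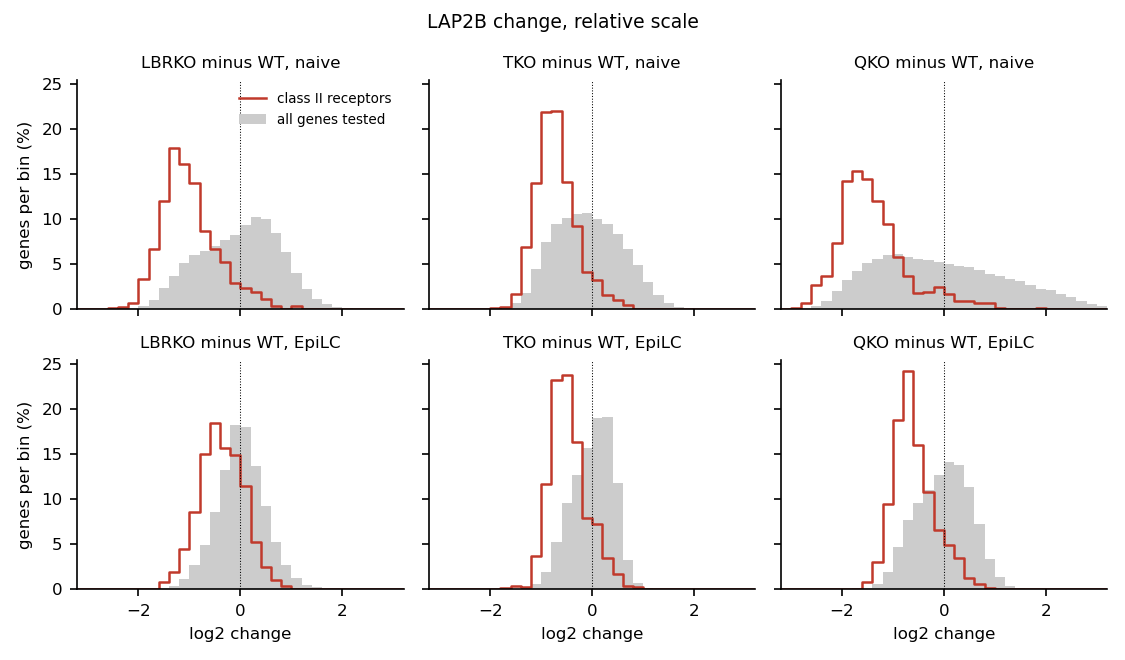
Share of class II receptor genes and of all genes tested (y axis, percent) by log2 change of LAP2B against WT on the relative scale (x axis), for LBRKO, TKO and QKO at both stages. The members lie to the left of all genes in each panel, with medians of -1.51 in naive QKO and -0.38 in EpiLC LBRKO.

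Or6a2 (ENSMUSG00000070417, chr7:106594606-106605279, cluster 7e) had the lowest naive QKO value relative to WT. Its relative LAP2B signal was 6.56, 6.71 and 4.50 in the WT libraries, against 3.31, 3.02 and 2.52 for LBRKO, 2.34, 3.38 and 2.55 for TKO and 0.789, 0.771 and 0.559 for QKO. The 3 mutants lay below WT without overlap, which for QKO the rule for naming members required, and LBRKO and TKO overlapped each other. The log2 change in QKO was -2.85 ± 0.19 (SE; limma adjusted p = 2.48e-19), in LBRKO -0.96 ± 0.19 (limma adjusted p = 2.97e-05) and in TKO -1.06 ± 0.19 (limma adjusted p = 7.74e-06). In QKO this gene was also lower than in TKO (-1.79 ± 0.19, limma adjusted p = 2.53e-11), while TKO minus LBRKO was -0.10 ± 0.19.

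Or5k16 and Or5h19, both in cluster 16d on chromosome 16, followed in naive QKO. Or5k16 had a relative signal of 5.22, 8.02 and 5.94 in the WT libraries, 2.20, 1.43 and 1.52 with LBRKO, 3.35, 2.05 and 2.39 with TKO and 1.11, 0.886 and 0.574 with QKO. QKO was the lowest group, below LBRKO without overlap. Its change in QKO was -2.74 ± 0.21 (limma adjusted p = 4.25e-17), and that of Or5h19 was -2.75 ± 0.31 (limma adjusted p = 2.49e-11).

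The largest falls in naive LBRKO were those of Or1j21, Or7d10 and Or7e175. Or1j21 (chr2:36680550-36687404, cluster 2a) fell from 2.15, 2.43 and 2.46 to 0.356, 0.426 and 0.169, with 1.15, 1.00 and 1.34 in TKO and 0.378, 0.686 and 0.5 in QKO. LBRKO lay below TKO without overlap for this gene and overlapped QKO. Its change was -2.53 ± 0.25 in LBRKO (limma adjusted p = 1.76e-12), and it was higher in TKO than in LBRKO by 1.58 ± 0.25 (limma adjusted p = 9.08e-07). Or7d10 (chr9:19828161-19840420, cluster 9a) had 2.64, 4.41 and 3.29 in WT, 0.577, 0.738 and 0.422 for LBRKO and 2.26, 1.82 and 1.91 for TKO, and was also higher in TKO than in LBRKO (1.61 ± 0.24, limma adjusted p = 2.6e-07). Or7e175, of the same family as Or7d10, changed by -2.33 ± 0.24 in LBRKO (limma adjusted p = 8.97e-12).

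In naive TKO the largest falls were in Or1e17, Or2d2 and Or1e35. Or1e17 (chr11:73827503-73833484) had a relative signal of 2.61, 2.75 and 2.06 in WT and 0.316, 0.5 and 1.27 in TKO, 1 TKO library being well above the other 2. Its change was -1.82 ± 0.28 (limma adjusted p = 2.52e-07), and Or2d2 and Or1e35 changed by -1.62 ± 0.29 and -1.62 ± 0.28 (limma adjusted p = 7.6e-06 and 2.87e-06).

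Few members rose. In LBRKO 8 rose on the relative scale and 9 on the spike-in scale, while TKO had 6 and 0, and QKO 21 and 1. Of all genes, 29.0%, 21.8% and 33.3% were called higher on the relative scale and 28.4%, 2.38% and 10.1% on the spike-in scale. Or10ah1-ps1 (ENSMUSG00000090981, chr5:143119769-143133336), the only member in its cluster and 17.2 kb from the nearest other protein-coding gene, had a relative signal of 2.54, 1.68 and 2.29 in naive WT, 4.50, 4.46 and 4.88 for LBRKO, 3.99, 3.23 and 4.09 for TKO and 9.93, 7.55 and 8.91 for QKO. Each mutant lay above WT without overlap, which the rule for naming members required here, and QKO stood above the other mutants. Its change was 1.06 ± 0.15 for LBRKO, 0.77 ± 0.15 for TKO and 1.97 ± 0.15 for QKO (limma adjusted p = 4.58e-08, 3.36e-05 and 5.28e-17), and on the spike-in scale 1.25, 0.18 and 0.76, of which that for TKO had a limma adjusted p of 0.608. WT IGG at this gene, at 2.83, 4.61 and 3.39, was higher than WT LAP2B, and its part in the rise was not tested.

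Or13j1 rose in LBRKO on both scales and, like Or5au1, in QKO on the relative scale only. Or13j1 (chr4:43704562-43710255) went from 1.14, 0.705 and 0.846 in naive WT to 2.15, 1.89 and 1.87 in LBRKO (1.05 ± 0.21, limma adjusted p = 2.73e-05) and 1.84, 1.99 and 1.63 in QKO (0.95 ± 0.21, limma adjusted p = 6.76e-05), with spike-in changes of 1.25 and -0.17. Or5au1 went from 1.1, 1.61 and 1.77 to 3.72, 2.89 and 2.82 in QKO (1.03 ± 0.20, limma adjusted p = 8.4e-06) and had a spike-in change of -0.14. Or13c7 rose in LBRKO by 1.09 ± 0.24 (limma adjusted p = 0.000172) and by 1.28 on the spike-in scale. Or5w22, of cluster 2b, was higher in LBRKO and TKO by 0.79 ± 0.28 each (limma adjusted p = 0.0131 and 0.0143), had -0.52 ± 0.28 in QKO (limma adjusted p = 0.0803), and rested on 30 to 42 reads in the WT libraries. The TKO call of Or5w22 was lost when any of 3 single libraries was left out, and that of Or13c7b (0.65 ± 0.27, limma adjusted p = 0.0371) under several settings.

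Well studied receptors also differed from each other. Of 8 on a list of receptors with known ligands or a known history, 5 could be matched. Or10j5 (MOR23) had a relative signal of 3.76, 4.50 and 4.04 in naive WT, 1.55, 2.02 and 0.819 for LBRKO, 1.68, 1.25 and 1.97 for TKO and 0.711, 0.876 and 0.676 for QKO, and changed by -1.49, -1.28 and -2.27 (SE 0.22 each, limma adjusted p at most 2.9e-06). Or10a4, known as P2, changed by -1.20, -1.19 and -2.28 (SE 0.24 each, limma adjusted p at most 3.59e-05). Or5d18, the eugenol receptor, had -0.53 and -0.41 in LBRKO and TKO, which did not pass the test (limma adjusted p = 0.0615 and 0.161), and fell in QKO (-0.98 ± 0.24, limma adjusted p = 0.000357). Or8a1b, known as M72, a receptor for acetophenone, fell in LBRKO (-0.78 ± 0.22, limma adjusted p = 0.00252) and QKO (-1.25 ± 0.22, limma adjusted p = 1.52e-06) and had -0.51 ± 0.22 in TKO (limma adjusted p = 0.0525). Or2c1, which lies 2.48 kb from a gene that is no olfactory or vomeronasal receptor gene, had 2.32, 2.16 and 2.33 in WT, 1.62, 2.07 and 1.30 for LBRKO, 2.38, 2.62 and 2.46 for TKO and 2.94, 3.35 and 2.88 for QKO. It was lower in LBRKO (-0.44 ± 0.18, limma adjusted p = 0.032) and on the relative scale higher in QKO (0.41 ± 0.18, limma adjusted p = 0.0354), where the spike-in scale gave -0.77. In TKO it had 0.13 ± 0.18 (limma adjusted p = 0.575).

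**Figure D3:**
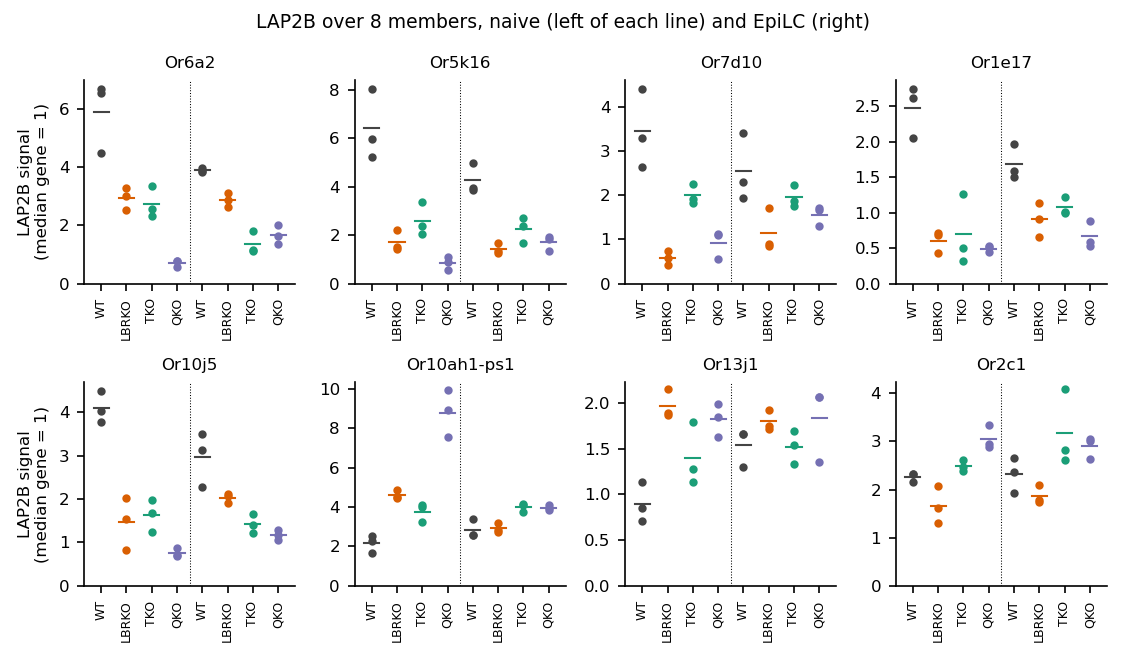
Relative LAP2B signal (library median gene = 1) of 8 class II receptor genes in each library of the 4 genotypes at both stages; each point is 1 library. Or6a2 runs from 4.50 to 6.71 in naive WT and 0.559 to 0.789 in naive QKO, while Or10ah1-ps1 runs from 1.68 to 2.54 and 7.55 to 9.93.

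Across the 3 naive mutants, 635 members were called lower in all 3, 24 were called higher in at least 1 and 66 were not called in any, which is 62.5%, 2.36% and 6.5% of tested members against 18.4%, 42.3% and 15.4% of all genes. These comparisons share the WT libraries. The mutants were also compared with each other, on the relative scale only. On the spike-in scale LBRKO and TKO had the other order, with median changes from WT of -0.94 and -1.31. The medians of all genes on that scale were 0.21 and -0.62. Between TKO and LBRKO, 260 members were higher in TKO and 27 lower (median 0.31), against 15.9% and 21.6% of all genes. QKO was lower than TKO at 656 members and higher at 10 (median -0.74, with 27.0% and 26.5% of all genes), and lower than LBRKO at 364 and higher at 17 (median -0.40, with 31.4% and 22.0%). Without LBRKO library 1, 239 members were lower in the last comparison.

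Family medians differed in the balance of LBRKO and TKO, which is given here on the relative scale only. Of all genes, 15.9% were higher and 21.6% lower in TKO than in LBRKO, and against WT 27.6% were lower in LBRKO and 27.8% in TKO. Family 7, of which 36 of 47 members lie on chromosome 9, had a median change of -1.57 in naive LBRKO (41 of 45 tested members lower) and -0.72 in TKO (26 lower), and 26 of its 45 members were higher in TKO than in LBRKO. Family 4 had -1.40 (143 of 149 lower) and -0.83 (120 lower), with 72 members higher in TKO than in LBRKO. Family 6 had -0.88 in both (57 and 60 of 77 lower). Family 13 had its lower median in TKO, with -0.41 in LBRKO (14 of 35 lower, 3 higher) and -0.82 in TKO (21 lower), and 8 of its 35 members (22.9%) were lower in TKO than in LBRKO, a share near that of all genes.

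In naive QKO the family medians ran from -1.05 in family 13 (23 of 35 lower, 5 higher) to -1.92 in family 3, in which all 6 members were lower. Among all genes, 42.2% were lower and 33.3% higher in naive QKO, and 27.6% were lower in LBRKO and 27.8% in TKO. Family 5, the largest, had -1.10 for LBRKO (165 of 191 lower), -0.76 for TKO (131) and -1.59 for QKO (185), and family 8 had -1.09 (112 of 129 lower), -0.68 (77) and -1.32 (121). Family 2 had -0.90 (90 of 128 lower), -0.75 (83) and -1.43 (105), and family 10 had -0.82 (60 of 94), -0.59 (51) and -1.25 (75). Members that lie side by side in a cluster share a stretch of chromatin, so they are not independent of each other.

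By cluster, the changes ranged from strong to none. The clusters named next were chosen after their values were seen. For scale, 27.6% of all genes were lower in naive LBRKO, 27.8% in TKO and 42.2% in QKO. Cluster 16d (chr16:58579907-59184356), which holds Or5k16 and Or5h19, had a median of -1.66 in naive LBRKO, -1.15 for TKO and -2.33 for QKO, and all 21 tested members were lower both in LBRKO and in QKO. In cluster 2c all 34 tested members were lower in LBRKO (median -1.40) and QKO (-2.07). Cluster 2b, the largest, had -1.22 for LBRKO (206 of 234 lower), -0.79 for TKO (171) and -1.59 for QKO (232).

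Other clusters moved little. No member was lower in LBRKO in cluster 13a (13 tested, median -0.03), cluster 15a (10 tested, -0.01) or cluster 1a (8 tested, 0.34, 2 higher). The shares of all genes in naive LBRKO were 27.6% lower and 29.0% higher. In naive QKO the medians of these 3 clusters were -0.08, 0.18 and 0.07. Members not called in any naive mutant numbered 66 (6.5%), against 15.4% of all genes. Of these 66, 9 lay in cluster 15a, 8 in cluster 13a, 8 in cluster 4d and 7 in cluster 11d, but only 1 in cluster 2b. Of the 21 members higher in naive QKO on the relative scale, against 1 on the spike-in scale, 5 were among the 7 of cluster 4a, 4 were all members of cluster 17a and 3 all those of cluster 11f. The shares of all genes higher in naive QKO were 33.3% on the relative scale and 10.1% on the spike-in scale.

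The medians of LBRKO and TKO on the relative scale were also ordered differently by cluster. Among all genes, 15.9% were higher in TKO than in LBRKO on that scale. Cluster 9a, with Or7d10, had -1.64 in LBRKO (35 of 36 lower) and -0.72 in TKO (21 lower), and 27 of its 36 members were higher in TKO than in LBRKO. The same held for 19 of 27 members of cluster 2a and 40 of 104 of cluster 9b. Cluster 1b, with Or10j5, had -0.50 for LBRKO (10 of 20 lower), -1.04 for TKO (16) and -2.10 for QKO (all 20), and cluster 7f had -0.40 (7 of 20), -0.84 (18) and -1.03 (18). In cluster 1b and in cluster 7f, 5 of 20 members each (25%) were lower in TKO than in LBRKO, again near the 21.6% of all genes.

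**Figure D4:**
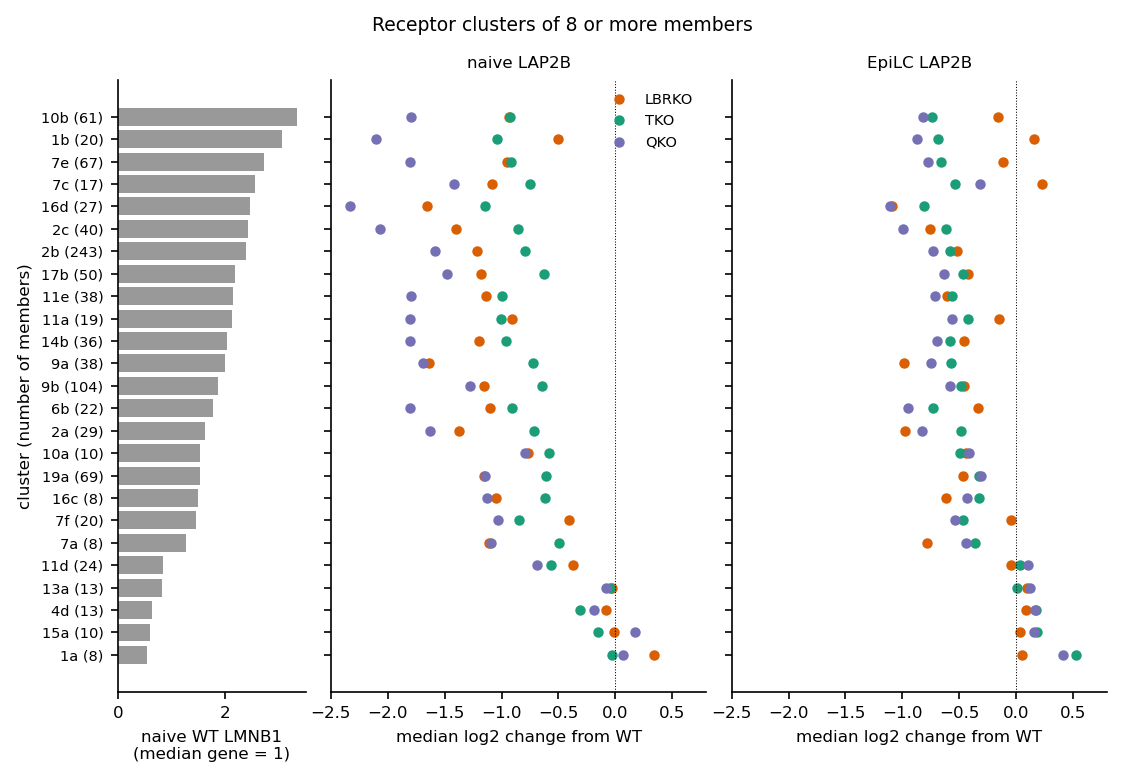
Median log2 change of LAP2B against WT (x axis, relative scale) for the 25 clusters with 8 or more members, in order of their naive LMNB1 density, with 1 point per mutant, at the naive and the EpiLC stage. Cluster 16d reaches -2.33 in naive QKO, and clusters 13a and 15a stay near 0.

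Size and surroundings of a cluster went with the change. Members of clusters with 20 or more genes had medians of -1.15 in naive LBRKO (735 of 850 lower), -0.79 in TKO (618) and -1.59 in QKO (821). Clusters of 5 to 19 had -0.60 (68 of 131 lower), -0.48 and -0.90. Clusters of under 5 had -0.28 (12 of 34 lower), -0.25 and -0.09 (12 lower and 10 higher in QKO). Of all genes, 27.6% were lower in LBRKO and 27.8% in TKO, and in QKO 42.2% were lower and 33.3% higher. With 35.3% lower in both LBRKO and QKO, clusters of under 5 were near these shares. Distance was taken to the nearest protein-coding gene that is no olfactory or vomeronasal receptor gene. The LBRKO median was -0.45 under 20 kb (49 of 112 lower) and -0.91 at 20 to 100 kb. It was -1.17 at 100 to 500 kb (429 of 463 lower) and -1.26 at 500 kb or more (150 of 167 lower). In QKO the nearest group had -0.86 with 18 members higher, and 166 of 167 in the farthest group were lower. Other measures moved with size and distance. The median naive LMNB1 density was 2.14, 1.22 and 0.958 from the largest to the smallest clusters, and the median GC content of the genes was 36.2%, 40.9% and 40.3%. From the nearest to the farthest group by distance, LMNB1 density went from 1.25 to 2.22 and GC content went from 41.0% to 34.4%. Their part in the change was not tested.

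The change also varied with the naive LMNB1 level in WT. Members were ordered by LMNB1 density and cut into 4 groups of 264. In the group with the lowest density, in which 223 members could be tested, the median changes were -0.48 for LBRKO, -0.41 for TKO and -0.72 for QKO. In the group with the highest they were -1.10, -0.93 and -1.86, with 263 of 264 members lower in QKO, against 42.2% of all genes. In LBRKO, however, the group before it had the lowest median (-1.29). Over 1015 single members the correlation of LMNB1 density with the change was r = -0.36 for LBRKO, -0.48 for TKO and -0.66 for QKO in naive cells, and -0.08, -0.60 and -0.62 in EpiLCs. Across the 25 clusters with 8 or more members, the correlation of median LMNB1 density with median change was r = -0.62 for LBRKO, -0.83 for TKO and -0.87 for QKO in naive cells, and -0.18, -0.86 and -0.82 in EpiLCs. These 25 points share the WT LAP2B libraries and their base composition: with the median GC content of the genes in place of LMNB1, r was 0.82, 0.57 and 0.72 in naive cells and 0.49, 0.79 and 0.72 in EpiLCs, and GC content and LMNB1 had r = -0.74 with each other. The parts of LMNB1 and of GC content were not tested apart.

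**Figure D5:**
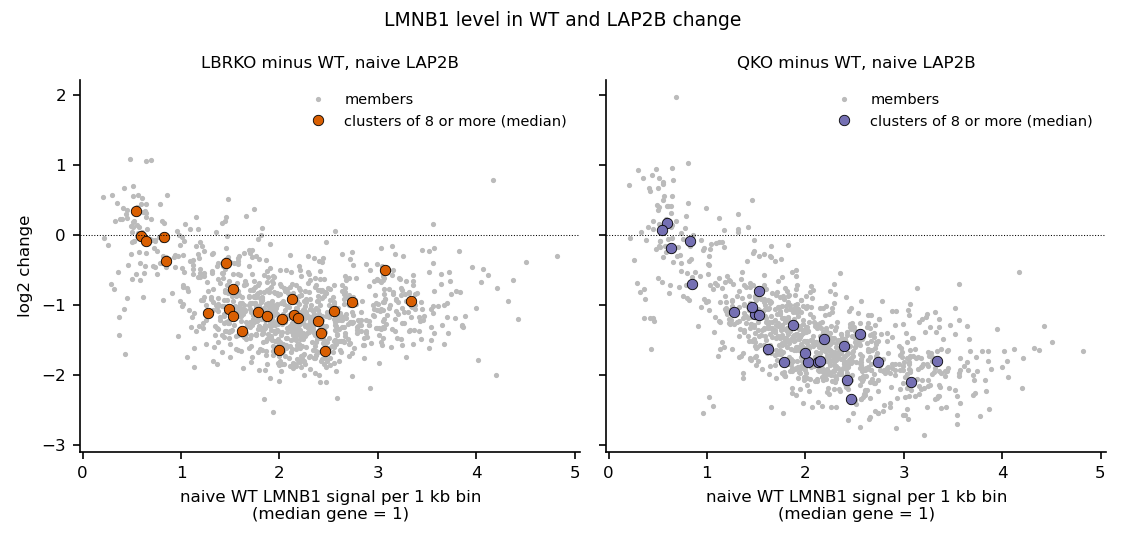
Log2 change of LAP2B in naive LBRKO and naive QKO against WT (y axis, relative scale) by naive WT LMNB1 density (x axis) for class II receptor genes (small points) and for the 25 clusters with 8 or more members (large points, medians). The QKO medians lie near 0 for clusters 1a, 13a and 15a at low density, reach -2.33 in cluster 16d at a density of 2.465 and are -1.79 in cluster 10b, which has the highest density.

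Genes beside the clusters were called in both directions, as genes were in general. These were 693 tested protein-coding genes within 1 Mb of a cluster of 20 or more. Only olfactory receptor genes were left out of them, so receptor genes of other kinds can be among them. In naive LBRKO (median 0.15) 195 were lower (28.1%, against 27.6% of all genes) and 267 higher (all genes 29.0%). In naive QKO (median 0.11) 261 were lower (37.7%, against 42.2%) and 312 higher (all genes 33.3%). The spike-in scale gave 431 lower and 104 higher in QKO. Their median density was 1.19 in naive WT and 1.53 in QKO. Around cluster 10b, 48 of 57 neighbours were higher in QKO (median 2.22) while all 55 tested members inside were lower (-1.79), and around cluster 9a 30 of 42 were higher (1.83). The neighbours of cluster 6b (42 of 43 lower, -1.76), cluster 16d (11 of 11 lower, -1.56) and cluster 1b (33 of 47 lower, -1.44) fell with the receptors.

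Related genes were also lower more often than all genes, in shares that differed between them and were not tested against each other. The shares of all genes called lower were 27.6% in naive LBRKO, 27.8% in TKO and 42.2% in QKO. For naive TKO the share called lower was 67.6% of members, 83.3% of class I, 65.8% of Vmn1r genes and 43.0% of class II pseudogenes. In class I, 122 of 132 tested genes were lower in naive LBRKO (median -1.09), 110 in TKO (-0.97) and 129 in QKO (-1.90). Of 231 Vmn1r genes, which encode pheromone receptors of the vomeronasal organ, only 149 could be tested. Among the 149, 132 were lower for LBRKO (-1.20), 98 for TKO (-0.72) and 146 for QKO (-1.59). Class II receptor genes that the tables list as pseudogenes had 110 of 151 lower (-0.93), 65 (-0.61) and 129 (-1.21). The 40 tested members with a pseudogene symbol had medians of -1.09, -0.76 and -1.53.

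Genes that act with the receptors were called in both directions, and the balance depended on the scale. The lists are short, and were not tested against all genes, of which, on the relative scale, LBRKO had 27.6% lower and 29.0% higher, TKO 27.8% and 21.8%, and QKO 42.2% and 33.3%. Of 20 genes of odorant signal transduction, among them Gnal, Adcy3 and Cnga2, 3 were lower and 10 higher in naive LBRKO (median 0.41), 6 lower and 7 higher in TKO (0.15) and 7 lower and 9 higher in QKO (0.21), or 13 lower and 3 higher in QKO on the spike-in scale. Of 15 regulators of receptor choice, among them Lhx2, Ldb1 and Ebf1, 2 were lower and 9 higher for LBRKO (0.49), 3 and 7 for TKO (0.27) and 4 and 9 for QKO (0.57), or 8 and 6 for QKO on the spike-in scale.

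In EpiLCs LAP2B of the class was also lower in all 3 mutants. At this stage the authors set LAP2B aside as a marker of lamina-associated domains, since WT signal fell partly outside them, so EpiLC values and stage interactions are LAP2B signal and not a measure of such domains. LAP2B of the class had a median density of 1.08 ± 0.122 in WT, 0.794 ± 0.0230 for LBRKO, 0.749 ± 0.0156 for TKO and 0.700 ± 0.0212 for QKO. WT IGG of EpiLCs, normalised apart, had a density of 0.696 ± 0.0486 at these genes, close to that of QKO. By density no mutant library overlapped WT. On the spike-in scale the median signal per 1 kb was 0.451 in WT library 2, below LBRKO library 3 (0.454) and TKO library 1 (0.452). On the relative scale 256 of 1016 members were lower in LBRKO and 13 higher (median -0.38), with 10.1% and 13.4% of all genes called. In TKO 316 were lower and 3 higher (median -0.51), with 10% and 8.73%, and in QKO 539 were lower and 10 higher (median -0.65), with 17.9% and 18.4%. Without WT library 1, the highest of the 3 WT libraries, 333 members were lower in QKO, 104 in TKO and 143 in LBRKO. Without TKO library 1 or TKO library 2, the count in TKO was 158 or 191, and with no filter on low values it was 201.

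On the spike-in scale 110 members were lower and 4 higher for LBRKO, 356 were lower for TKO and 923 for QKO, with 3.54%, 9.52% and 55.4% of all genes lower, 5.66%, 0.104% and 0.118% higher, and a median of all genes of -0.73 for QKO. The count in LBRKO turned to 51 lower and 88 higher when the spike-in factor was applied to the recovered reads, and it was 22 without WT library 1, 42 without LBRKO library 1, 44 without LBRKO library 2, 64 without WT library 3 and 67 without LBRKO library 3. That in TKO was 11 without WT library 1, 116 without WT library 3 and 97 and 53 without TKO libraries 2 and 3, but 543 without WT library 2 and 600 without TKO library 1.

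In EpiLC LBRKO the lower members were most frequent in cluster 16d (18 of 21 lower, median -1.09), cluster 9a (28 of 36, -0.99), cluster 2a (23 of 27, -0.98), cluster 7a (7 of 8, -0.78) and cluster 2c (22 of 34, -0.76). Cluster 7e had 0 of 66 members lower in EpiLC LBRKO (-0.11) and cluster 10b had 1 of 55 (-0.16). The share of all genes called lower in this comparison was 10.1%. By family, family 7 (30 of 45 lower, -0.94), family 4 (74 of 149, -0.65) and family 1 (36 of 71, -0.64) were among those with the lowest medians and the highest shares, as was family 3 (3 of 6, -0.62), while family 5 had 50 of 191 lower. Family 13 had 1 of 35 lower (0.04), and family 6 had 6 of 77 (7.79%, median -0.05), a share near that of all genes. In EpiLC QKO, 51 of 77 members of family 6 were lower (-0.73), against 17.9% of all genes.

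Or6a2 had 3.98, 3.88 and 3.84 in WT EpiLCs, 2.63, 2.88 and 3.11 for LBRKO, 1.11, 1.14 and 1.83 for TKO and 1.35, 1.63 and 2.00 for QKO. All mutants lay below WT, but LBRKO was closest to it (-0.43 ± 0.19, limma adjusted p = 0.0997), and TKO fell by 1.47 ± 0.19 on the log2 scale (limma adjusted p = 4.38e-07). Among the largest falls were Or5h18 in LBRKO (-1.57 ± 0.29, limma adjusted p = 2.87e-05), Or5an10 in TKO (-1.65 ± 0.29, limma adjusted p = 5.65e-05) and Or6c210 in QKO (-1.52 ± 0.24, limma adjusted p = 2.16e-06). Or13e8, of family 13, was higher in all 3 EpiLC mutants on the relative scale, at 0.75, 0.607 and 1.05 in WT, 1.68, 1.28 and 1.76 for LBRKO, 1.49, 1.59 and 1.80 for TKO and 1.38, 1.83 and 1.87 for QKO. Its changes were 0.89, 0.94 and 0.98 (SE 0.21 each, limma adjusted p = 0.00114, 0.00143 and 0.000234), and on the spike-in scale 0.94, 0.70 and 0.18, of which the last 2 did not pass the test (limma adjusted p = 0.142 and 0.623). WT IGG at Or13e8 was 1.16, 1.84 and 1.84 in EpiLCs, and its part was not tested.

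The stages were compared last. In WT cells LAP2B was lower in EpiLCs than in naive mESCs at 251 of 1016 members and higher at 8 (median -0.40), with 17.3% and 15.1% of all genes called, but scaling to the mean of all genes gave 83 lower and 24 higher, no filter on low values gave 161 and 9, and on the spike-in scale 32 were lower and 3 higher (1.83% and 10.4% of all genes). Without WT naive library 2 the count was 83 lower, without EpiLC library 3 it was 120 and without EpiLC library 2 it was 165. Cluster 2b held 104 of the 251. Or4p18 had the largest fall (-1.49 ± 0.29, limma adjusted p = 7.97e-05). LMNB1 was lower at 77 of 1014 members (7.59%) and higher at 5 (median -0.25), where 7.18% and 6.34% of all genes were called, so the share of members lower was near that of all genes. It was lower at 22 and higher at 11 with mean scaling, lower at 1 with no filter on low values, and on the spike-in scale lower at 6 and higher at 8 (0.25% and 7.94%). The LMNB1 count rested on single libraries, from 18 lower without EpiLC library 3 to 277 lower without naive library 2. Or5w22 was among the largest falls, from 2.07, 1.46 and 1.36 to 0.532, 0.671 and 0.489 (-1.33 ± 0.25, limma adjusted p = 0.00153). IGG was lower at 6 members in limma and in edgeR (median -0.22, with 0.426% of all genes lower and 0.0767% higher).

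Whether a mutant's effect differed between the stages was tested by an interaction term. The effect of LBRKO was higher in EpiLCs (a positive interaction) at 260 members and lower at 3 (median difference 0.66, with 10.4% and 9.58% of all genes). That of QKO was higher at 517 and lower at 3 (0.85, with 24.9% and 21.0%), and that of TKO at 19 and 2 (0.24, with 5.86% and 3.81%). A higher effect can be a smaller fall or a larger rise, and a lower effect a larger fall or a smaller rise. The WT LAP2B density of the class was 1.49 ± 0.221 in naive mESCs and 1.08 ± 0.122 in EpiLCs. WT IGG, normalised apart, had 0.821 ± 0.0565 and 0.696 ± 0.0486. The part of these levels in the interaction was not tested. In both directions together, 25.9%, 51.2% and 2.07% of members were called for LBRKO, QKO and TKO, against 20%, 45.9% and 9.67% of all genes. By direction, 25.6%, 50.9% and 1.87% of members had a higher effect in EpiLCs, as had 10.4%, 24.9% and 5.86% of all genes. A lower effect was found for 0.295%, 0.295% and 0.197% of members and for 9.58%, 21.0% and 3.81% of all genes. With mean scaling the counts with a higher and a lower effect were 150 and 3 for LBRKO and 8 and 4 for TKO. With no filter on low values they were 167 and 3 for LBRKO and 10 and 2 for TKO. Without WT naive library 2 the LBRKO count was 128 and without WT EpiLC library 3 it was 152. For LBRKO these were 26 of 55 in cluster 10b and 24 of 66 in cluster 7e, but 2 of 27 in cluster 2a and 3 of 21 in cluster 16d. For QKO there were 18 of 20 in cluster 1b and 27 of 34 in cluster 2c. Or6a2 had an interaction of 1.66 ± 0.27 in QKO (limma adjusted p = 1.42e-06) and -0.41 ± 0.27 in TKO (limma adjusted p = 0.365). Over both stages, 250 members (24.6%) were called lower for LBRKO at both, 282 (27.8%) for TKO and 535 (52.7%) for QKO, against 9.17%, 8.75% and 17.4% of all genes.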

How the data were processed

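CUT&RUN signal was analysed for 36 libraries in 12 groups of 3 (24 LAP2B, 6 LMNB1 and 6 IGG), while the 2 samples of H3K9me3 were left out. According to the methods, the authors mapped paired reads to mm39 with Bowtie2 2.3.5.1 and to yeast (sacCer3), kept proper primary pairs without duplicates with SAMtools 1.10, and made coverage signal in 1 kb bins with deepTools as RPKM times a spike-in factor, leaving out blacklisted regions. How bins became genes is not described in the sources used here. The deposited values behave as sums over the bins a gene touches, not divided by length, and all are whole multiples of 1 read (tolerance 0.05 read), from which reads were recovered.

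Signals were tested in limma 3.58.1 (R 4.3.3) on log2(value + 0.1 of the median), with 1 fit per antibody and without the lowest 0.1 of genes by mean (70381 of 78202 genes tested in LAP2B), so fold changes of low genes are understated. P-values were adjusted (Benjamini-Hochberg) over all genes and called at 0.05. edgeR 4.0.16 on recovered reads, other scalings, pseudocounts and filters, a replicate block and leaving out each library were the alternatives. In a simulation of naive QKO minus WT over 70381 genes, 200 genes, none with few reads, were changed by 1 on the log2 scale. Of these 200, 71% were recovered. Far fewer genes were changed than were called in the data, so this share is not the sensitivity of the real comparison. Duplicates had been removed, and depth limits members with few reads (median 84.5 reads per tested member and library).

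The members and gene lists were chosen with earlier results of these data known. Named members were, by rule, the highest LMNB1 density in each family, the 3 largest called changes in each direction and mutant whose libraries did not overlap (2 for the WT stage comparisons), and well studied receptors. The text gives only some of these, and promoters of 3 well studied members, without a motif match, are not printed. Clusters were named after their values were seen. Coordinates come from GENCODE M39, a later release than the authors' M30. Receptor protein sequences were not analysed here.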

Additional observations from a re-analysis of the deposited data

Results flagged for a closer look

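The 3 results given here were singled out because the effect of a genotype on LAP2B differed between naive mESCs and EpiLCs by the test of the difference itself (interaction term, limma, adjusted over all genes). For LBRKO this held for 263 class II receptor genes, for QKO for 520 and for TKO for 21, or 25.9%, 51.2% and 2.07% of tested members. Over all genes the shares were 20%, 45.9% and 9.67%. By direction, 260, 517 and 19 of these members (25.6%, 50.9% and 1.87%) had a higher effect in EpiLCs, as had 10.4%, 24.9% and 5.86% of all genes. A lower effect was found for 3, 3 and 2, and for 9.58%, 21.0% and 3.81% of all genes. A lower effect can be a larger fall or a smaller rise, and a higher effect a smaller fall or a larger rise. In LBRKO, Or1j21 had an interaction of 1.60 ± 0.36 (limma adjusted p = 0.000923), its change being -2.53 in naive mESCs and -0.92 in EpiLCs. Or10ah1-ps1 went the other way (-1.02 ± 0.22, limma adjusted p = 0.000523), with a change of 1.06 in naive mESCs and 0.04 in EpiLCs. The naive effect is measured against a higher WT level (median density 1.49 ± 0.221) than the EpiLC effect (1.08 ± 0.122), and its part in the interaction was not tested. WT IGG, normalised apart, had a density of 0.821 ± 0.0565 in naive mESCs and 0.696 ± 0.0486 in EpiLCs, and its part was not tested.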

How the results depend on the processing

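Replicate numbers did not pair the libraries: deviations of libraries with the same number correlated at -0.11 to 0.18 in LAP2B. With the number as a replicate block, calls were 0 for LMNB1 between stages on the spike-in scale (14 without it) and 3 for IGG (6 without it), and no other count moved by over 1.5 times. Of 198 counts of called members under settings other than leaving out a library, 171 stayed within 1.5 times of the reported count, 25 moved further and 2 turned direction. The causes were not tested.

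Calls below are given in both directions together. Dividing libraries by their mean gave 384 for naive TKO (main 693), 153 and 12 for the LBRKO and TKO interactions (263 and 21), and 107, 33 and 2 between stages for LAP2B, LMNB1 and IGG (259, 82 and 6). With no filter on low values, which tests more genes, calls were 205 for EpiLC TKO (319), 170 and 12 for the LBRKO and TKO interactions, and 170, 1 and 0 between stages for LAP2B, LMNB1 and IGG. On the spike-in scale they were then 50 and 196 for EpiLC LBRKO and TKO (114 and 356), and 11 and 0 between stages for LAP2B and LMNB1 (35 and 14). The TKO interaction had 13 calls in edgeR and 33 with a pseudocount of 0.5 of the median, which also gave 56 for LAP2B between stages on the spike-in scale. IGG had 2 calls with a pseudocount of 0.01 and 0 when libraries were divided by the median of the chromosome. With the spike-in factor applied to recovered reads, EpiLC LBRKO turned to mostly higher (139 calls, 51 lower and 88 higher) and LMNB1 between stages to mostly lower (17 calls, 13 lower and 4 higher), EpiLC TKO had 109 and LAP2B between stages 57.

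Leaving out 1 library at a time gave, on the relative scale, 737 to 813 calls in naive LBRKO, 484 to 691 in TKO and 904 to 922 in QKO. In EpiLCs it gave 153 to 271, 106 to 320 and 336 to 548. QKO minus LBRKO had 251 to 413, the LBRKO interaction 131 to 321, the TKO interaction 10 to 29, LAP2B between stages 89 to 294, LMNB1 19 to 283 and IGG 0 to 8. On the spike-in scale naive LBRKO had 437 to 695, EpiLC LBRKO 26 to 158, EpiLC TKO 11 to 600, LMNB1 between stages 0 to 26, IGG 0 to 43 and LAP2B between stages 7 to 41, the last turning to 3 lower and 8 higher (11 calls) without WT naive library 2. No member named by rule for its change turned direction under these settings on the relative scale, while Or13j1 and Or5au1 in naive QKO turned to lower values on the spike-in scale. Depth limits members with few reads, and 41 members without a read could not be tested.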

Other observations

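In naive QKO the members had a lower median log2 LAP2B change than all tested genes of their chromosome on 13 of the 14 chromosomes with 10 or more tested members, and by over 1 on 11 of them. Members on chromosome 16 had a median log2 LAP2B change of -2.07, where all tested genes of the chromosome had -0.18, and members on chromosome 11 had -1.38 against 0.75, and those on chromosome 2, the most numerous, -1.63 against -0.12. Members on chromosome 15 had 0.18 against 0.23, and on chromosome 13 they were higher, at -0.08 against -0.35. On chromosome 6, which part of the WT cells carry in 3 copies, members had -1.74 against -0.62. Or10ah1-ps1, the lone member on chromosome 5, had 1.97.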
